A study of Monomorium pharaonis with 23 samples.

Results

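The level of LOC105830375 in pharaoh ant worker heads differed widely between libraries of the same task, from 5.71 to 1249 RPKM in foragers and from 19.1 to 1851 RPKM in nurses, and 50 other genes followed it from library to library. These 51 genes of the 12648 in the table were chosen by how they varied, in 3 steps. RPKM counts reads relative to a gene's length in kilobases and to the library's total in units of 1000000 reads, and a mean of at least 5 was required, which 6947 genes had. A gene was kept if the forager was the higher library in more than 10% and fewer than 90% of the 126 forager-nurse pairs, which left 6811 eligible genes. The log2(RPKM + 1) values of each gene then had its own forager mean and nurse mean subtracted, and the 50 genes whose deviations gave the highest Pearson correlation with those of LOC105830375 over 23 libraries were taken. The correlations within tasks therefore chose the members and are given as descriptions, with no test. The size of a gene's spread within tasks was not itself ranked, but it comes from the same deviations as r. It is also given as a description, with no test.

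The libraries came from worker heads of Monomorium pharaonis, an ant with many queens per colony and sterile workers. There were 9 forager libraries, from workers caught while out for food, and 14 nurse libraries, from workers caught while tending larvae. All came from colonies of 10 queens, 300 to 400 workers and about as many brood, kept at 27 degrees C and 50% humidity with 12 hours of light, and polyadenylated RNA was sequenced without strand. The sources used here do not give the number of heads per library, the ants' ages or the colony of each library. P-values therefore reflect only how these libraries vary, which may be partly technical.

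Ant workers divide the colony's labour, and in many ant species a worker nurses brood when young and forages when older. A worker's head holds the brain, the sense organs of the antennae and eyes, muscle of the mandibles, fat body and several glands, some of which make food for larvae or digestive enzymes. Bulk RNA from a whole head sums over all of these, so fewer cells of a type and less RNA per cell cannot be told apart. The files give the members by identifier, without gene names or products, so they are described by level, spread and position and no function is given to any of them.

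Read totals recovered from the RPKM values were 3.68 to 14.998 M reads in foragers (median 6.43) and 8.31 to 31.3 M reads in nurses (median 12.5), M standing for 1000000. Among the members, 37 had at least 10 reads in every library. Some libraries stood apart for these genes. Foragers 1 and 9 were high, with a median member deviation of 1.59 and 1.32 of the gene's own standard deviation (SD) within tasks. Foragers 3, 5 and 8 were low, with median deviations of -0.87, -0.98 and -0.95. Nurse 1 had the lowest median deviation of all, at -2.26, and every one of the 51 members lay below its nurse mean in that library. These deviations are from each task's own mean. By level, the members' median log2(RPKM + 1) was 3.22 in nurse 1 and was lower only in foragers 5 and 8, at 2.69 and 2.96. For most of these genes, then, nurse 1 lay with the foragers, against its label. It was at or below the forager median in 48 of the 51 members and within the forager range in 40. Foragers 1 and 9 lay towards the nurses, against their labels, but less uniformly. Forager 1 exceeded the nurse median in 30 members and forager 9 in 22. The labelled tasks were kept throughout. Some of the correlations, slopes and counts below are also given without 1 or more of these 3 libraries, and the others include them.

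**Figure D1:**
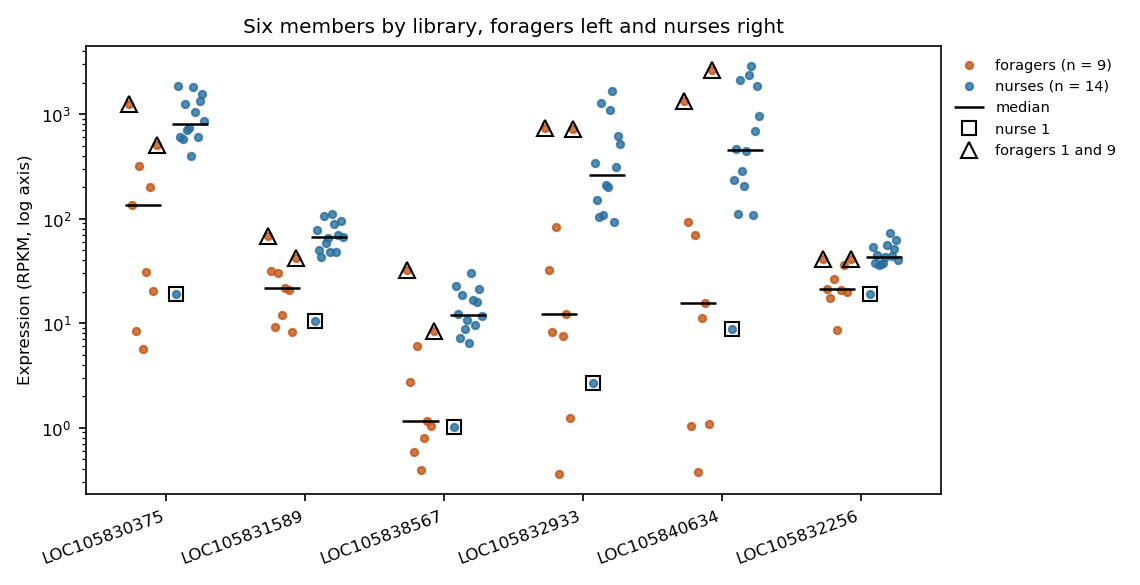
RPKM of LOC105830375 and 5 other members in each of the 9 forager libraries (orange, left) and 14 nurse libraries (blue, right) on a log axis; short lines are medians, triangles mark foragers 1 and 9 and squares nurse 1. Foragers 1 and 9 lie near or among the other 13 nurses, and nurse 1 lies within the range of the foragers, in all 6 genes.

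LOC105830375 itself was high in few foragers and in nearly every nurse. It had a lowest, median and highest level of 5.71, 136 and 1249 RPKM in foragers, against 19.1, 798 and 1851 RPKM in nurses. Forager 1 held the highest forager value, followed by forager 9 at 501 and forager 4 at 318 RPKM, while foragers 5 and 3 held 5.71 and 8.39 RPKM. Nurse 1 held the lowest nurse value, and the next lowest nurse had 397 RPKM. Without nurse 1, then, the nurses lay between 397 and 1851 RPKM, and foragers 1 and 9 alone reached into that range. The values rest on 15 to 4977 recovered reads in foragers and 155 to 21028 in nurses.

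The 5 genes that followed LOC105830375 most closely spanned low and high levels. LOC105831589 (r = 0.923 over 23 libraries) had a lowest, median and highest level of 8.26, 21.8 and 67.7 RPKM in foragers, against 10.5, 66.4 and 110 RPKM in nurses. LOC105838567 (r = 0.914) had 0.394, 1.15 and 31.9 RPKM in foragers, against 1.02, 11.9 and 30.02 RPKM in nurses. LOC105836911 (r = 0.899) had 0.749, 4.55 and 29.8 RPKM in foragers, against 2.46, 26.2 and 67.2 RPKM in nurses. In all of these forager 1 was the highest forager and nurse 1 the lowest nurse, and the groups overlapped. LOC105832933 (r = 0.896) had 0.362, 12.2 and 741 RPKM in foragers, against 2.70, 260 and 1674 RPKM in nurses. LOC105828352 (r = 0.886) had 2.88, 11.6 and 56.5 RPKM in foragers, against 7.11, 48.2 and 92.2 RPKM in nurses. Forager 1 led the first of this pair and forager 9 the second, with nurse 1 again the lowest nurse in both.

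The next 5 in order were LOC105840634, LOC105832256, LOC105840417, LOC105828533 and LOC105832400, with r from 0.877 to 0.850. LOC105832256 was among the steadiest of them, with 8.68, 21.2 and 40.8 RPKM in foragers as lowest, median and highest, against 18.9, 43.3 and 72.8 RPKM in nurses. LOC105840417 had 5.05, 16.7 and 41.4 RPKM in foragers, against 15.7, 41.9 and 72.2 RPKM in nurses. LOC105828533 was rarer, with 1.53, 2.98 and 17.6 RPKM in foragers, against 2.88, 12.2 and 23.9 RPKM in nurses. LOC105832400 had 3.12, 10.9 and 111 RPKM in foragers, against 2.75, 29.0 and 88.9 RPKM in nurses. It was the one of these 5 in which a forager, number 9, exceeded every nurse.

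Over all 50 other members r ran from 0.674 to 0.923, with a median of 0.736, against a median of 0.10 over all other eligible genes. The last members inside the limit were LOC105829313, LOC105838837 and LOC105840261, at 0.677, 0.675 and 0.674. The first genes outside it were LOC105830356, LOC105835321 and LOC105839914, at 0.673, 0.668 and 0.665. The values ran on without a gap across the limit, and 225 eligible genes had an r above 0.5, or 61 without nurse 1, forager 1 and forager 9. Over the 1275 pairs of members the median r was 0.69 and the lowest 0.32. The choice by r with LOC105830375 favours such values, so nothing is read from them. Without nurse 1, forager 1 and forager 9 the median over pairs was 0.44.

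The members differed in how far they varied. The SD within tasks on the log2(RPKM + 1) scale was at least 1 in 19 members, LOC105830375 among them, and under 1 in 32, and these are called wide and narrow here. The SDs ran across this limit without a gap, so the names mark ends of a range. Such a wide spread was present in 37.3% of members and in 2.36% of eligible genes. The SDs come from the same deviations as the r that chose the members, so nothing is read from this contrast. An SD of at least 2 was found in 7 members and in 32 eligible genes in all. These 7 were LOC105830375, LOC105832933, LOC105840634, LOC105837073, LOC105831433, LOC105828952 and LOC105837064. The wide members had a median mean level of 80.5 RPKM and the narrow ones of 26.4 RPKM, against 17.0 RPKM for eligible genes. Recovered gene lengths had a median of 1232 bases in 18 wide members and 2065.5 bases in 32 narrow members, against 2049 bases in 6785 eligible genes.

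LOC105831433 and LOC105840634 had the highest means over the 23 libraries, and both were near 0 in some foragers. LOC105840634 had a lowest, median and highest level of 0.377, 15.6 and 2662 RPKM in foragers, against 8.81, 451 and 2888 RPKM in nurses. LOC105831433 had 2.22, 17.5 and 2416 RPKM in foragers, against 15.9, 506 and 5489 RPKM in nurses. In these genes forager 9 exceeded forager 1, which had 1338 RPKM of LOC105840634 and 1327 RPKM of LOC105831433, and the third forager had 93.2 and 167 RPKM of them. LOC105837073 had 0.9704, 28.5 and 1858 RPKM in foragers, against 14.5, 437 and 2588 RPKM in nurses. LOC105835308 was never low, with 58.8, 121 and 790 RPKM in foragers, against 45.1, 358 and 1807 RPKM in nurses. The 5 members with the highest means, these 4 and LOC105830375, held 59.9% of the members' summed RPKM.

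The members together were a visible part of some libraries and a trace in others. Their summed share of a library's RPKM was 0.90% ± 1.13 in foragers (SD, n = 9), with 0.161, 0.353 and 3.11% as lowest, median and highest. In nurses it was 2.18% ± 1.85 (SD, n = 14), with 0.231, 1.36 and 6.01%. Nurse 10 had the highest share and nurse 1 the lowest nurse share. Forager 9, at 3.11%, lay above every nurse but 5, 9 and 10, and forager 1, at 2.63%, above every nurse but these and nurse 13.

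**Figure D2:**
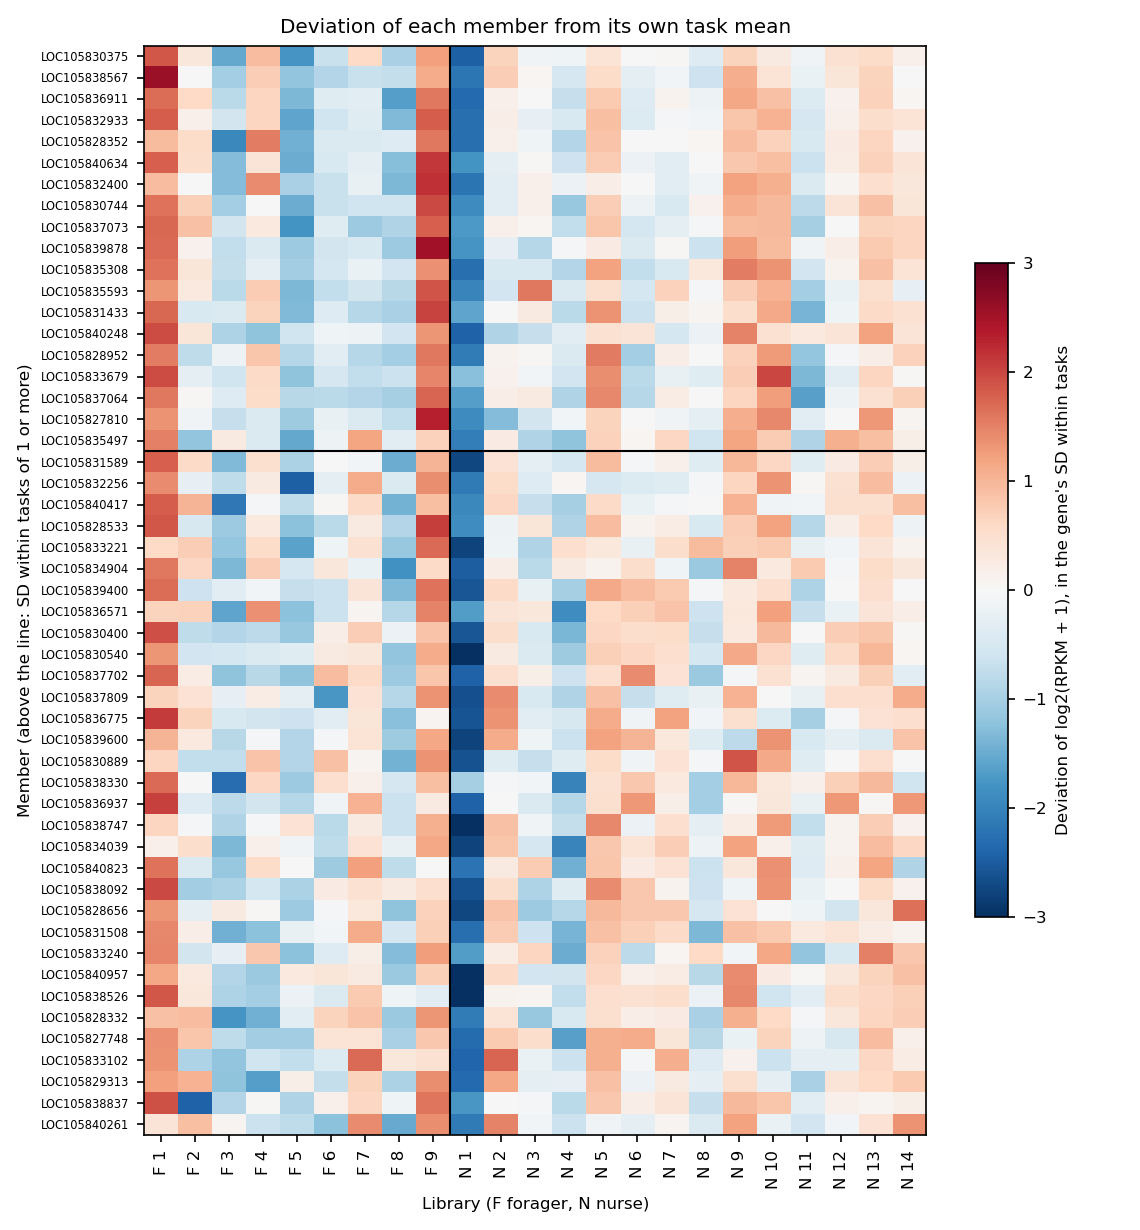
Deviation of log2(RPKM + 1) from the gene's own task mean, in units of its SD within tasks, for the 51 members (rows; the 19 wide ones above the line) in foragers 1 to 9 (left) and nurses 1 to 14 (right). Columns of one colour mark forager 1 and forager 9 as high and nurse 1 as low across nearly every member.

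Which library was the highest or lowest recurred from member to member, which the choice by r with LOC105830375 favours. Nurse 1 was the lowest nurse and foragers 1 and 9 the 2 highest foragers for LOC105830375, so nothing is read from these counts. Nurse 1 was the lowest nurse for 48 of 51 members, against 34.4% of eligible genes, and lay at or below the forager median for 48. Foragers 1 and 9 were the 2 highest foragers for 32 members, against 3.98% of eligible genes, and forager 1 alone led in 28 and forager 9 in 21. Forager 1 exceeded the nurse median in 30 members and forager 9 in 22. In 45 members all 7 remaining foragers lay below the nurse median. The highest nurse varied more: nurse 9 in 20 members, nurse 10 in 11, nurse 5 in 7 and nurse 2 in 6.

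The members did not all peak in the same nurses. LOC105830375 was highest in nurse 2 at 1851 RPKM, where LOC105840634 had 232 RPKM, below its nurse median, and LOC105831433 had 394 RPKM, also below it. LOC105831433 and LOC105828952 were highest in nurse 5, at 5489 and 3571 RPKM, as was LOC105837064 at 1394 RPKM. These 3 genes followed each other more closely than LOC105830375, with pairwise r of 0.955 to 0.975, and r of 0.701 to 0.734 with LOC105830375. Nurse 11, by contrast, had 23.3, 22.8 and 1.59 RPKM of these 3 genes and 608 RPKM of LOC105830375. LOC105835593 was the only member to peak in nurse 3, at 513 RPKM against 249 RPKM in the next nurse, number 10.

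The closest pair of all was LOC105836911 and LOC105832933, at r = 0.975, and LOC105840634 followed both, at 0.958 and 0.959. Pairs of wide members had a median r of 0.845 and a lowest of 0.515, reached by LOC105835593 with LOC105835497. Pairs of narrow members had a median of 0.689 and pairs of 1 wide and 1 narrow member of 0.666. Without nurse 1, forager 1 and forager 9 the medians were 0.679 for wide and 0.459 for narrow pairs. The choice by r with LOC105830375 favours a high r in all of these pairs. LOC105835497 was the most distant wide member from LOC105830375 itself, at r = 0.689. It had 9.24, 25.9 and 85.5 RPKM in foragers, against 21.2, 110 and 217 RPKM in nurses, and forager 7 came second among its foragers, at 68.1 RPKM.

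Most narrow members stayed within a few fold. LOC105837809 had the smallest spread of all, an SD of 0.239, with 26.4, 37.0 and 44.7 RPKM in foragers as lowest, median and highest, against 29.0, 44.7 and 57.8 RPKM in nurses. LOC105840261, the last member by r, had 16.9, 22.6 and 28.8 RPKM in foragers, against 15.4, 22.4 and 29.9 RPKM in nurses. Its groups covered nearly the same range, and its forager median was the only one among the 51 to exceed the nurse median. LOC105838526 was the only narrow member with a mean of at least 100 RPKM, at 69.3, 88.1 and 157 RPKM in foragers, against 63.6, 167 and 231 RPKM in nurses. LOC105838837, the last but one by r, had 0.689, 4.998 and 14.8 RPKM in foragers, against 5.03, 14.8 and 23.6 RPKM in nurses. LOC105829313 had 20.6, 34.8 and 49.1 RPKM in foragers, against 21.6, 42.8 and 58.4 RPKM in nurses, a fold range of 2.70 among nurses.

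The slope of a member's deviation on that of LOC105830375 gives how much of each log2 step it shared. Slopes ran from 0.082 for LOC105840261 to 1.28 for LOC105840634, with a median of 0.22. They exceeded 1 in 5 members, LOC105840634, LOC105832933, LOC105837073, LOC105831433 and LOC105837064. The wide members had a median slope of 0.542 and the narrow ones of 0.16. A slope is r times the member's SD over that of LOC105830375, so this difference follows largely from the grouping by SD. Without nurse 1, forager 1 and forager 9 slopes ran from 0.041 to 1.07, with a median of 0.15 over the 50 members.

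The correlations were also computed in each task taken alone. They use the same deviations that chose the members, so the choice favours high values in both tasks. Within the 9 foragers r with LOC105830375 ran from 0.4659 to 0.919 over the 50 members, with a median of 0.766 and 49 above 0.5. Within the 14 nurses it ran from 0.542 to 0.962, with a median of 0.812 and 50 above 0.5. The median over all other eligible genes was -0.04 in foragers and 0.32 in nurses. Of these 6810 genes 318 were above 0.5 in foragers and 2050 in nurses. LOC105840957 was the one member at or under 0.5 in foragers, at 0.4659, and it had 0.951 in nurses. Without nurse 1 the range in nurses was 0.044 to 0.9495, the median 0.557 and 34 members stayed above 0.5. All other eligible genes then had a median of 0.13 in nurses, with 845 of 6810 above 0.5. LOC105833221, at 0.044, and LOC105835593, at 0.127, then had next to no correlation among nurses, while LOC105838567 kept 0.9495 and LOC105831589 0.863.

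**Figure D3:**
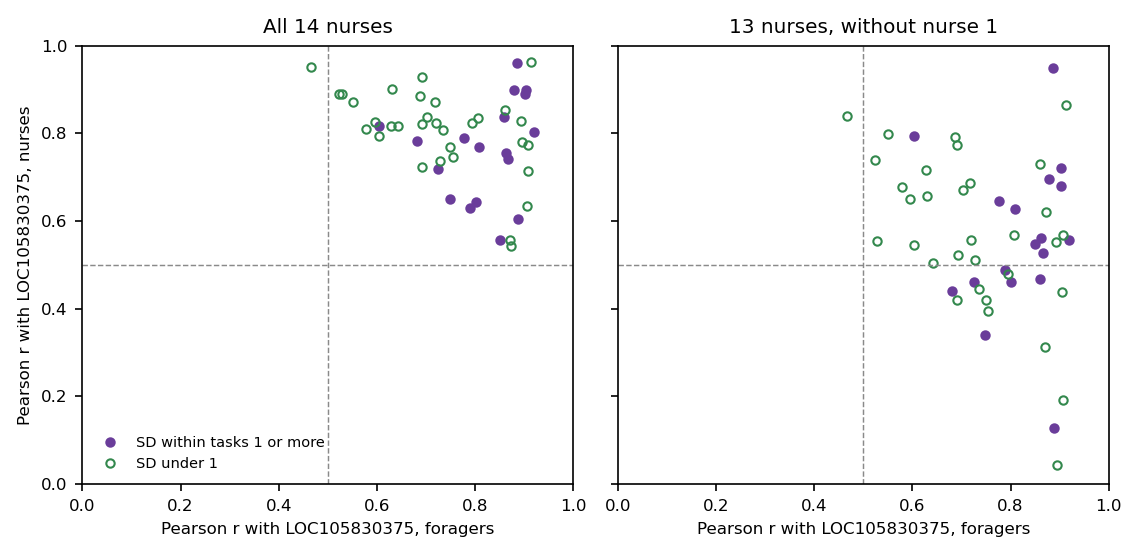
Pearson r with LOC105830375 over the 9 foragers (horizontal) and over nurses (vertical) for the 50 other members, with all 14 nurses on the left and without nurse 1 on the right; filled points are wide members and dashed lines mark 0.5. All 50 lie above 0.5 in the 14 nurses and 34 without nurse 1, against 2050 and 845 of all 6810 other eligible genes.

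Ranking genes in one task and reading them in the other gives correlations that the ranking did not use. The limits on mean level and on forager-nurse pairs still used all 23 libraries. The 50 eligible genes with the highest r in foragers alone had a median r of 0.566 in nurses, against 0.32 over all other eligible genes. In nurses 31 of these 50 were above 0.5, against 2050 of all 6810 other eligible genes. Without nurse 1 the median of the 50 in nurses was 0.358, with 16 above 0.5, against 0.13 and 845 of 6810. The 50 with the highest r in nurses alone had a median r of 0.17 in foragers, with 12 above 0.5, against -0.04 and 318 of 6810. Without foragers 1 and 9 their median in foragers was 0.0052, with 6 above 0.5, against -0.19 and 313 of 6810. The 2 lists shared 5 genes, 10% of each, and these were LOC105831589, LOC105838567, LOC105836911, LOC105832933 and LOC105828352. All 5 are members, and they are the 5 with the highest r over all libraries. That r combines the deviations of both tasks, so nothing is read from this. Of the members, 27 were in the list from foragers and 13 in that from nurses.

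The list depended on nurse 1 and forager 1 more than on other libraries, partly through the limit on forager-nurse pairs. When a single library was left out and the 50 highest were taken again, 28 members returned without nurse 1, 31 without forager 1, and 35 to 49 without any other library. Without nurse 1 all 22 that did not return had passed out of the limit on pairs, and 18 of them still had an r at or above that of the last gene taken. LOC105831589, LOC105832256 and LOC105840417 were among these 22. Without forager 1, 14 members passed out of that limit, 9 of them with such an r, and 5 others fell below it. Without nurse 1, forager 1 and forager 9 together, a choice made after seeing the data, 5 of the 50 members returned, 43 had passed out of the limit on pairs and 18 of these 43 had an r at or above that of the last gene taken.

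Over the remaining 20 libraries the members' r ran from 0.238 to 0.818, with a median of 0.456 and 21 above 0.5. All other eligible genes had a median of -0.09, with 61 of 6810 above 0.5. LOC105828352 was then at 0.818, LOC105831589 at 0.804, LOC105838567 at 0.803, LOC105840634 at 0.760 and LOC105836911 at 0.754. A set of 14 members returned whichever single library was left out, among them LOC105836911, LOC105832933, LOC105828352, LOC105840634, LOC105830744, LOC105837073, LOC105835308 and LOC105835593. LOC105828352 was the one member that returned in all 40 alternatives tried.

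**Figure D4:**
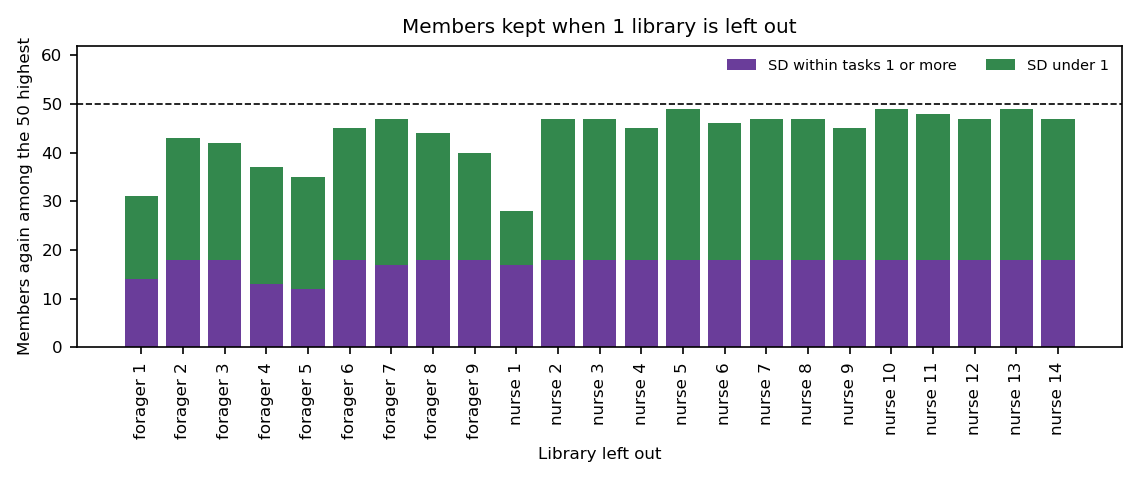
Number of the 50 other members that were again among the 50 genes with the highest r when the named library was left out, foragers left and nurses right, with wide members in the lower and narrow members in the upper part of each bar; the dashed line marks 50. The shortest bars are those without nurse 1 (28) and forager 1 (31).

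Without nurse 1, 17 of 18 wide and 11 of 32 narrow members returned. All 22 that did not had passed out of the limit on pairs, 18 of them with an r at or above that of the last gene taken. Without forager 5, 12 of 18 wide and 23 of 32 narrow members returned. All 15 that did not were within the limit on pairs but had too low an r. Depth and the main pattern of the other genes were set beside the members. The median member deviation had r = 0.29 with log2 read total in foragers (n = 9) and 0.16 in nurses (n = 14). With the first principal component of the deviations of 6760 other eligible genes, which held 22.8% of their variance, it had r = 0.13 in foragers and 0.82 in nurses. Nurse 1 was the lowest nurse on both measures, and over the other 13 nurses r was 0.54. Both share the same libraries, and their part in the members' pattern was not tested.

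Levels in foragers and nurses are compared here only as a description, because the choice of genes limited how far the tasks could differ. The forager mean on the log2 scale was below the nurse mean in all 51 members, against 39.3% of eligible genes. The median difference, foragers minus nurses, was -0.98 on the log2 scale with a range of -3.77 to -0.03, against 0.04 over eligible genes. The forager median in RPKM was under 0.5 times the nurse median in 28 members. With limma over all 9622 genes tested, 24 of the 51 members were higher in nurses at a Benjamini-Hochberg adjusted p under 0.05, where the background is 2.18% of tested genes, and 0 were higher in foragers, where it is 1.76%. At an unadjusted p under 0.05 limma gave 48 and 0, where the background is 7.59% and 9.17%. Nothing is read from these counts, since the members were limited on the same comparison.

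Of the calls, 5 were among the 19 wide members and 19 among the 32 narrow ones. LOC105836775 had the lowest adjusted p, with 7.002 ± 2.72 RPKM in foragers (SD, n = 9) and 13.9 ± 4.08 RPKM in nurses (SD, n = 14). Its log2 difference, foragers minus nurses, was -0.90 with an SE of 0.17 (adjusted p = 0.00421 in limma). LOC105840417 had a log2 difference of -1.33 with an SE of 0.28 (adjusted p = 0.00762 in limma), at 19.3 ± 11.4 RPKM in foragers and 45.6 ± 15.8 RPKM in nurses. LOC105830375 averaged 274 ± 402 RPKM in foragers and 952 ± 543 RPKM in nurses, and its log2 difference was -3.04 with an SE of 0.81 (adjusted p = 0.0330 in limma). The other called wide members were LOC105838567, LOC105836911, LOC105840248 and LOC105835497, with log2 differences of -1.75, -1.80, -1.70 and -1.67 (limma adjusted p of 0.0346, 0.0339, 0.0494 and 0.0163). In 36 alternatives LOC105840248 lost its call in 27, LOC105838567 in 16, LOC105836911 in 14, LOC105830375 in 12 and LOC105835497 in 3. The largest difference, -3.77 for LOC105840634 with an SE of 1.18 (adjusted p = 0.0693 in limma), did not pass, nor did those of LOC105832933, LOC105831433, LOC105828952, LOC105837073 and LOC105837064.

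The count of calls depended on single libraries and on depth, as did that over all tested genes. It was 7 without forager 3, 8 without forager 5, 12 without forager 8, 13 without nurse 5 and 15 without nurse 13. Over all tested genes the calls higher in nurses were then 112, 119, 157, 147 and 160, in the same order of libraries, against 210 with every library. The count of members was 34 without forager 1, 37 without forager 9 and 39 without nurse 1, with 227, 222 and 328 over all genes. With read depth as a covariate limma called 0 members and 4 of all tested genes higher in nurses. At an unadjusted p under 0.05 it gave 29 members, against 3.98% of tested genes, and the median member difference was -0.79 in place of -0.98. Foragers were the less deeply sequenced group. The forager mean was also below the nurse mean in 50 of 51 members with that covariate, LOC105840261 being the exception, and in all 51 under TMM factors, median-of-ratios factors and quantile normalization.

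Each member's task difference can be set beside its slope, as a description only. For each of the 50 other members the slope within tasks was multiplied by the task difference of LOC105830375. The choice of members used the deviations behind the slopes and limited the task differences, so it bounds the ratio of both, and nothing is read from it. The member's own task difference was 1.18 times this product at the median, and lay between 0.5 and 2 times it in 49 members. LOC105840634 had -3.77 for a product of -3.88 and LOC105831433 -3.13 for a product of -3.06. LOC105836775, at 1.91 times, and LOC105838837, at 1.82 times, had the largest ratios, and LOC105839914, just outside the list, had 2.10. LOC105840261 had the smallest, at 0.11 times, with a log2 difference of -0.03.

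**Figure D5:**
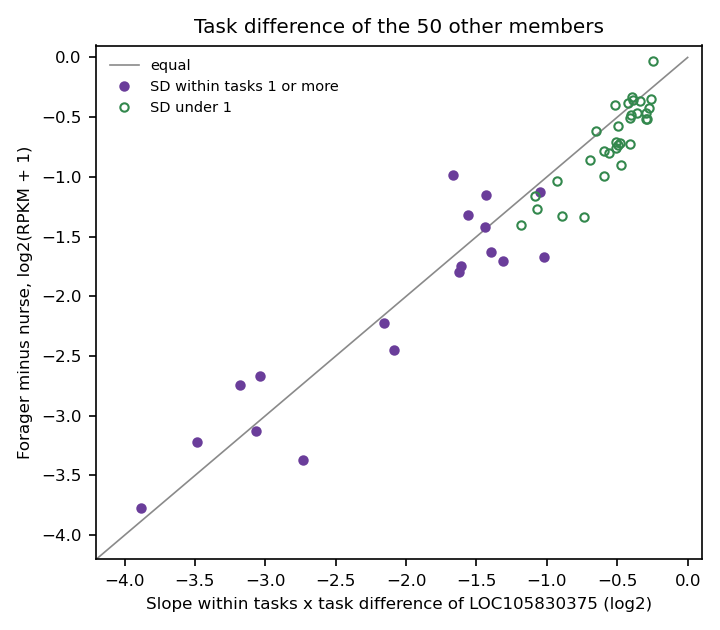
Difference between the forager and nurse mean of log2(RPKM + 1) for the 50 other members (vertical) against the member's slope on LOC105830375 within tasks times the task difference of LOC105830375 (horizontal); filled points are wide members and the line marks equality. LOC105840634 lies at -3.77, near the line, and LOC105840261 at -0.03, above it; the choice of members bounds how far points can lie from the line.

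Of the 51 identifiers, 49 are annotated as protein coding, LOC105833240 as a pseudogene and LOC105833679 was not matched. The 48 that are placed lie on all 11 chromosomes of the annotation, with at most 9 on any of them. Members were close neighbours in 2 places. LOC105837064 and LOC105837073 lie on chromosome 4 with 4 genes between them and followed each other at r = 0.918, while the genes between had r of -0.06 to 0.14 with LOC105830375. LOC105837064 was the rarer of the pair, with 0.463, 4.21 and 415 RPKM in foragers as lowest, median and highest, against 1.40, 109 and 1394 RPKM in nurses. LOC105840634 and LOC105831433 lie on chromosome 8 with LOC105840635 between them and followed each other at r = 0.901. LOC105840635 had a mean of 18.2 RPKM and r = 0.40 with LOC105830375. For 17 members the annotated span overlaps another gene, and without strand the reads of such genes cannot be told apart.

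The limit on the forager-nurse pairs kept out genes that varied in the same way. At or above the lowest r of the members were 18 genes left out by that limit, all 18 because nurses were the higher library in at least 90% of pairs. LOC105837031 had r = 0.951 with LOC105830375, more than any member, with 2.11, 18.2 and 34.6 RPKM in foragers as lowest, median and highest, against 5.38, 47.4 and 82.4 RPKM in nurses. LOC105829883 had r = 0.894, with 4.42, 16.5 and 107 RPKM in foragers, against 9.60, 110 and 365 RPKM in nurses. Among abundant genes, LOC105835742 had r = 0.722, at 295, 710 and 1810 RPKM in foragers and 904, 2960 and 5092 RPKM in nurses. At the other end, where foragers were higher in at least 90% of pairs, 0 of 72 genes reached the members' lowest r, against 18 of 64 at the nurse end.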

How the data were processed

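Expression in 9 forager and 14 nurse head libraries was taken from 1 table of RPKM values that the authors deposited for 12648 genes, with 6 significant digits; all 23 value columns were used, and samples were grouped by the labels' task. Per the submitters' processing notes, STAR 2.5.0b was used. The sources used here name no counter, genome build or annotation. RPKM divides by gene length and library total, so depth does not show in it. The steps between low values gave back read totals, gene lengths and whole reads: 12088 of 12223 genes above 0 gave a length, and 99.97% of their values were whole within 0.05 reads, which the search itself favours. No library repeated another, with a chi-square per degree of freedom of at least 12.5 over 253 pairs.

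The members were computed as described above, with a pseudocount of 1. The members, lists and tests were chosen with earlier results of these data known. The task test was limma on log2(RPKM + 1) with an intensity trend and 1 term for task, two-sided, for the 9622 genes that reached 1 RPKM in 9 or more libraries, with Benjamini-Hochberg adjustment over all of them. Fold changes are foragers minus nurses and understate the change of low genes. Correlations are descriptions over libraries, with no p. The scripts were tested on simulated data.

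The genes named by rule were LOC105830375, the 10 other members with the highest r, the 5 with the highest mean, the 3 just inside and the 3 just outside the limit, up to 5 called members with the largest difference in each direction, neighbouring members and the 5 with the largest spread. The choice of other genes to name was made after seeing their values. Identifiers were matched to the annotation of GCF_013373865.1 ASM1337386v2 for gene type and order only: 10700 matched and 1948 did not. It gives no products, so gene lists, cell type markers and sequence features were not analysed here, and the tissue label was not checked against markers.

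Alternatives were pseudocounts of 0.1 and 5, mean limits of 1 and 20 RPKM, TMM, median-of-ratios and quantile scaling, depth as a covariate, the replicate number as a block, voom on recovered reads, limma without trend or with a robust prior, other filters, Spearman's rho, single tasks and leaving out each library. The software was limma 3.58.1 and statmod 1.5.0 in R 4.3.3, and pandas 2.3.3, NumPy 2.4.6, matplotlib 3.10.9 and SciPy 1.17.1 in Python 3.11.15.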

Additional observations from a re-analysis of the deposited data

Results flagged for a closer look

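Among 21 sets of 9 forager values, those of 20 named members and of the members' summed RPKM, 4 had a highest library far from the rest, by the gap to its neighbour over the whole range (Dixon's 95% critical value). LOC105830375 had 1249 RPKM in forager 1, with the next forager at 501 RPKM. LOC105838567 had 31.9 RPKM in forager 1, with the next at 8.49 RPKM. LOC105840634 had 2662 RPKM in forager 9, with the next, forager 1, at 1338 RPKM, and LOC105832400 had 111 RPKM in forager 9, with the next at 54.0 RPKM. On the log2 scale 0 of the 21 sets passed. Chance alone gives such a gap in about 1 of 20 sets, and the 21 sets are not independent, as members were chosen to vary together.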

How the results depend on the processing

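Of the 50 other members, 24 returned with the replicate number as a block (9 foragers and nurses 1 to 9; 41 in the same libraries without it), 32 with a mean limit of 20 RPKM, which leaves out every member below it, 22 with deviations of RPKM itself, 27 in foragers alone, 13 in nurses alone and 5 without nurse 1, forager 1 and forager 9 together. Leaving out 1 library returned 28 to 49; every other alternative returned 37 to 48. Without those 3 libraries 43 of 50 members passed out of the limit on forager-nurse pairs. The count of members called higher in nurses by limma, 24 in all libraries, was 0 with read depth as a covariate, 0 with the replicate block and 1 in the same libraries without it, where 4, 22 and 29 of all tested genes were called higher in nurses and the members' median difference was -0.79, -0.81 and -0.81; at an unadjusted p under 0.05 the block gave 36 members and no block 38, against 6.28% and 5.89% of tested genes; leaving out 1 library gave 7 to 39. No member was called higher in foragers in any of the 36 alternatives. Same-numbered libraries were not treated as paired: 4 of 9 pairs had a correlation over 0.1, and 1 of 9 foragers correlated best with its own number. The sources used here do not give the colony of each library, and these 9 pairs cannot show whether same-numbered libraries share one. The log2 fold change of LOC105840261 turned to 0.0229 with depth as a covariate and ran from -0.0723 to 0.0196 when 1 library was left out. LOC105830375 had limma adjusted p from 0.00357 to 0.491. The cause of the other changes was not tested. Shallow foragers limit the low end: LOC105830375 had 15 reads in forager 5.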

Other observations

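Over the 23 libraries few eligible genes varied against LOC105830375: 26 had r below -0.5, against 225 above 0.5. Without nurse 1, forager 1 and forager 9 only 61 were above 0.5. The median over all other eligible genes was then -0.09 and the lowest r -0.77, with 2457 of 6810 above 0. The lowest over the 23 libraries was LOC105833957, at -0.69, with 6.41, 8.29 and 10.2 RPKM in foragers as lowest, median and highest, against 7.92, 8.81 and 10.1 RPKM in nurses. The next was LOC105832040, at -0.67, with 1.89, 4.36 and 53.5 RPKM in foragers, against 0.103, 0.869 and 6.86 RPKM in nurses. Its r with LOC105830375 was -0.63 within foragers and -0.75 within nurses.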
